A study of Mus musculus with 29 samples.

Results

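Of the 56748 genes in the count table of the aortic arch, 10 encode the glutathione S-transferases described here. They are Gsta3 and Gsta4 of the alpha class, Gstm1, Gstm2 and Gstm5 of the mu class, Gstp1 of the pi class, Gstt1 and Gstt2 of the theta class, Gsto1 of the omega class and the membrane-bound Mgst1. The genes were listed by name and matched by symbol to the Ensembl identifiers of the table, and all 10 were found and passed the filter on low counts, among 12353 genes that did. RNA was sequenced as 1 library per mouse, and the mice fall into 6 groups. WT mice fed ad libitum (AL) gave 5 samples at 6 weeks and 5 at 22 weeks, and WT mice on 30% dietary restriction (DR) gave 5 at 22 weeks. Ercc1Δ/− mice gave 5, 4 and 5 samples in the same order. Ercc1 encodes a subunit of an endonuclease for DNA repair, and Ercc1Δ/− mice carry 1 loss-of-function allele and 1 hypomorphic allele in every cell of the body, in a hybrid C57BL6J/FVB background that they share with their WT littermates. Every group held both sexes, and the mice were housed singly.

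Glutathione S-transferases join the thiol of glutathione to reactive, electrophilic compounds, which makes these less reactive and marks them for export. The alpha class also reduces lipid hydroperoxides, and GSTA4 of this class is known for its high activity with 4-hydroxynonenal, an aldehyde made when membrane lipids oxidize. The mu and pi classes are the abundant cytosolic forms of many tissues, the theta class handles small halogenated molecules, GSTO1 reduces dehydroascorbate and other substrates by a cysteine in its active site, and MGST1 sits in the membranes of the endoplasmic reticulum and mitochondria. Several of these genes are known targets of NRF2, the transcription factor that raises antioxidant genes under electrophilic stress by binding the antioxidant response element.

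Members of this family lie near close copies of themselves, which bears on how reads can be assigned, so the starts of 2 pairs of coding sequences are shown. The first 90 coding bases are given from the canonical GENCODE transcripts of GRCm39, 5′ to 3′, and capitals mark the bases at which the lower sequence of each pair differs from the upper.
Gstm1: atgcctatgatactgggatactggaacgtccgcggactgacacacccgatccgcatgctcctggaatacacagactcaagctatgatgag
Gstm2: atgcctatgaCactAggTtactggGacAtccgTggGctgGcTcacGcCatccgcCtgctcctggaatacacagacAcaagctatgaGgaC
Gstp1: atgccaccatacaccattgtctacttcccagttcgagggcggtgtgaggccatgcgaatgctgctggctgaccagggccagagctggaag
Gstp2: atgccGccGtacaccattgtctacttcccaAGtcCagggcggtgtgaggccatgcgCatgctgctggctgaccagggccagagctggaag
Gstm2 differed from Gstm1 at 15 of these 90 positions, and Gstp2, a neighbouring copy that is no member of the list, differed from Gstp1 at 6. Over their whole aligned coding sequences, Gstm1 and Gstm2 were 85.9% identical and Gstp1 and Gstp2 98.1%. Of the 31-base words in its canonical transcript, Gstp1 shared 61.1% with transcripts of other genes, Gstm2 39.2% and Gstm1 32.0%, whereas Gsta4, Gstm5, Gsto1 and Mgst1 shared none, Gsta3 shared 1.05%, Gstt1 2.67% and Gstt2 7.49%. Reads that aligned to more than 1 place were not counted by the authors, so the levels of Gstp1, Gstm1 and Gstm2 are uncertain by the reads that could not be placed. The copies themselves held few counts, 176 for Gstp2 and 172 for the pseudogene Gstm2-ps1 over all 28 samples, against 10006 for Gstp1 and 61498 for Gstm1. Gsta3, which carries most of the results below, has near relatives in Gsta1 and Gsta2, whose counts over the 28 samples were 1 and 0.

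The 10 genes lie on 6 chromosomes of GRCm39. Gstm1 (chr3:107919380-107925380), Gstm2 (chr3:107889004-107893785) and Gstm5 (chr3:107803137-107806005) form 1 cluster, and Gstt1 (chr10:75618994-75634445) and Gstt2 (chr10:75666948-75673258) another. Gsta3 (chr1:21310806-21335885), Gsta4 (chr9:78090056-78117763) and Mgst1 (chr6:138117314-138133774) stand apart, and Gstp1 (chr19:4085405-4088068) and Gsto1 (chr19:47842686-47853229) share a chromosome at a distance. Genes on the opposite strand overlap Gsta3, Gstm1, Gstm5 and Gsto1. The strand setting of the count is not given in the sources used here, so reads of these partners cannot be told apart. The partner of Gsta3, the long noncoding Gm28836, held 2 counts over the 28 samples, that of Gstm5, 4933431E20Rik, held 987 against 2452 for Gstm5 itself, and Cfap43, which overlaps Gsto1, held 55 against 2149.

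The sequences before the start sites of Gsta3, Gsta4 and Mgst1 are shown, since these were the members with the largest differences between the groups. Each is the 250 bases before the start of the canonical transcript in GRCm39, on the plus strand, and capitals mark matches to the core of the antioxidant response element, TGACNNNGC, on either strand.
Gsta3, chr1:21310556-21310805: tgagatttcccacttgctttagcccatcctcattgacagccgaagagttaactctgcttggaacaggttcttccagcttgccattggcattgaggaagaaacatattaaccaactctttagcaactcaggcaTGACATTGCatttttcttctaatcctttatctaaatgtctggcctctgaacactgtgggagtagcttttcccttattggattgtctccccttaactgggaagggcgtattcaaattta
Gsta4, chr9:78098979-78099228: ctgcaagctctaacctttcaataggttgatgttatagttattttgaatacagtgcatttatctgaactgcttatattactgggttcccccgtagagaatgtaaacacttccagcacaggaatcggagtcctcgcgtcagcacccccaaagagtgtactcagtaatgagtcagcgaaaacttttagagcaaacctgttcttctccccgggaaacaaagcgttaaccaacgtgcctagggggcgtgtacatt
Mgst1, chr6:138118334-138118583: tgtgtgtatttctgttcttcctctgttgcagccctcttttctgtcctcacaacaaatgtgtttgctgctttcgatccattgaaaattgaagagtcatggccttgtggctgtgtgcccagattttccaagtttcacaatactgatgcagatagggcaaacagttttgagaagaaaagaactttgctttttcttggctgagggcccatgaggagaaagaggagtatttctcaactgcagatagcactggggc
Gsta3 had 1 match, TGACATTGC, which begins 118 bases before the start site, and the windows of Gsta4 and Mgst1 had none. Windows of 300 bases, from 250 before to 50 after the start, were searched in all 21770 protein-coding genes, and 12.5% of them held the motif. Among the 10 members the windows of Gsta3 and Gstm5 held it. The core of the xenobiotic response element, GCGTG, stood in 37.0% of all windows and in those of 5 members, and the GC box GGGCGG in 42.5% and in those of 3 members. The 2 first motifs overlap in Gstm5, whose match TGACCACGC holds GCGTG on the opposite strand. A match of letters is a description of the window and not a measured binding site.

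Total counts on genes ran from 921167 to 9616382 over the 28 samples used, and 400410 in sample 003, an AL-fed WT mouse of 22 weeks that the study left out and that was left out here. The 4 Ercc1Δ/− samples of 22 weeks on AL, with 1294980 to 3855444, were all below the 4 WT samples, with 3903589 to 9616382. On DR the Ercc1Δ/− samples, with 921167 to 2572523, were likewise all below the WT samples, with 2660422 to 6124471. The share of counts on mitochondrial genes was 5.37% to 5.96% in Ercc1Δ/− and 2.47% to 3.72% in WT samples at 22 weeks on AL, and 4.04% to 9.22% and 2.88% to 5.12% on DR. The part of depth and of this share in the differences between the genotypes was not tested beyond thinning to equal totals, after which Gsta3 was called in both comparisons and Gsta4 on DR. Ercc1 itself was lower in Ercc1Δ/− mice in all 3 genotype comparisons, with log2 fold changes of -1.42 at 6 weeks on AL (adjusted p = 0.000297), -0.96 at 22 weeks on AL (adjusted p = 0.00276) and -1.01 at 22 weeks on DR (adjusted p = 0.000545). At 6 weeks its normalized counts overlapped, at 52.2 to 136.2 in WT and 31.2 to 56.3 in Ercc1Δ/− samples. The lowest of these WT samples was 011, with 955589 counts in total. At 22 weeks the genotypes did not overlap on either diet. The labelled tissue was also checked. Smooth muscle markers summed to 62480 to 160000 normalized counts and fibroblast markers to 12540 to 42960, and markers of white and brown fat, at 5960 to 19300, were present in every sample. In RNA from whole tissue, fewer cells of a type and less RNA per cell cannot be told apart.

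Gstm1 was the most abundant of the 10 transcripts in the aortic arch. Normalized counts are counts scaled to a library of 3683502, and for levels between genes they were divided by the exonic length in kb. On this scale Gstm1 had a level of 864 ± 104 (SD, n = 28), Gstm2 323 ± 31, Gstp1 217 ± 23.0, Mgst1 156 ± 63.3, Gstt1 102 ± 15.5 and Gstm5 69.5 ± 11.8. The other 4 lay close together, with Gsta3 at 22.1 ± 14.7, Gsto1 at 21.5 ± 4.05, Gsta4 at 21.2 ± 10.8 and Gstt2 at 15.7 ± 4.33. Gstm1 exceeded Gstm2, Gstm2 exceeded Gstp1 and Gstt1 exceeded Gstm5 in 28 of 28 samples. Gstp1 was above Mgst1 and Mgst1 above Gstt1 in 21 of 28, and the order of the lowest 4 changed from sample to sample, since Gsta3 was above Gsto1 in 11 of 28, Gsto1 above Gsta4 in 19 of 28 and Gsta4 above Gstt2 in 16 of 28. Gstm1 took 42.5% to 59.9% of the summed normalized counts of the 10 genes per sample and Gsta3 0.503% to 6.45%. The order depends on the length used, since the authors counted reads over the whole gene body: per kb of gene body Gstp1 stood above Gstm2, and only Gstm1 and Gsto1 kept their place.

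**Figure D1:**
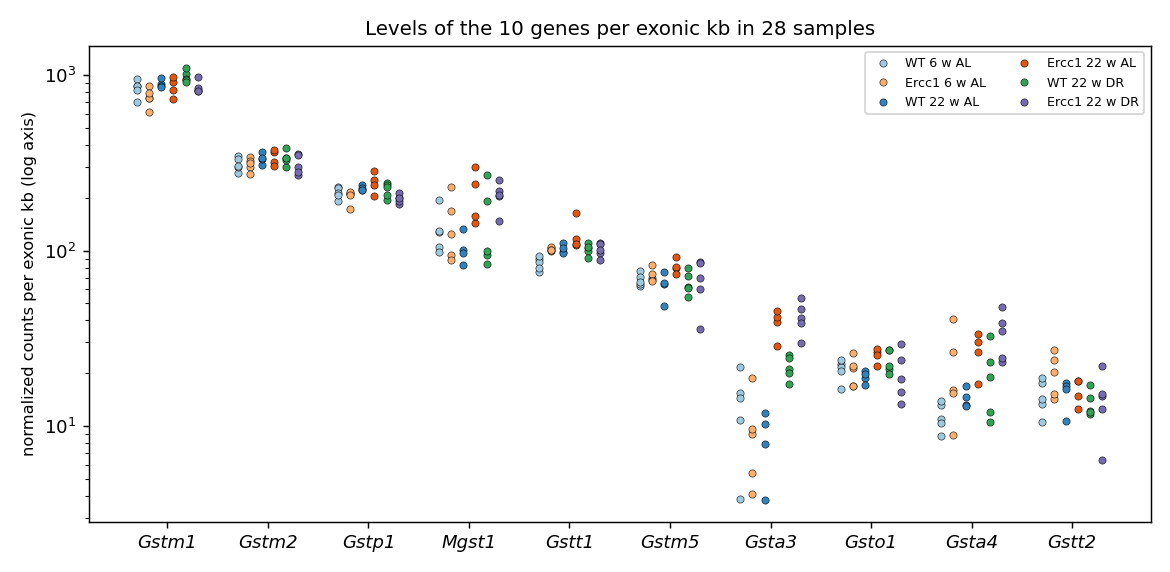
Normalized counts per exonic kb (log axis) of the 10 genes in the 28 samples, with 1 point per sample and colours for the 6 groups. Gstm1 lies at the top in every sample, Gsta3 is the gene whose groups spread most widely, and Gstt2 has the lowest mean, 15.7.

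Differential expression analysis called few members, and every call was of a higher level. A call required a change of 1.2-fold or more and an adjusted p (Benjamini-Hochberg) no higher than 0.05 in the quasi-likelihood test of edgeR. At 22 weeks on AL, 1 of 10 members was called between the genotypes, Gsta3, where 12.0% of the 12353 tested genes were called in either direction and 5.96% as higher. Between the genotypes on DR, 2 of 10 were called, Gsta3 and Gsta4, where 13.0% of the tested genes were called and 5.91% as higher. From 6 to 22 weeks in AL-fed Ercc1Δ/− mice, 1 member was called, Gsta3, where 4.65% of the genes were called and 2.22% as higher, and between DR-fed and AL-fed WT mice 1 was called, again Gsta3, where 1.25% were called and 0.332% as higher. With 10 genes, 1 call at 22 weeks on AL is near the background share, and 2 calls on DR are little above it.

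No member was called between the genotypes at 6 weeks, where 1.72% of all tested genes were, nor with age in WT mice, where 0.219% were, nor with DR in Ercc1Δ/− mice, where 1.78% were. At an unadjusted p under 0.05, 3, 1 and 2 of the 10 members passed in these comparisons, in the order given, where 12.8%, 8.63% and 15.0% of all genes did, and DESeq2 called 0 in each of them. Neither the difference of the genotype effect between the ages nor that between the diets gave a called member, where 0.785% and 0.0890% of all genes were called at an adjusted p of at most 0.05, and 2 of 10 members had an unadjusted p under 0.05 in each, as did 11.4% and 8.73% of all genes. DESeq2 called Gsta3 in both. The median log2 fold change of the 10 members was 0.32 between the genotypes at 22 weeks on AL, with 9 of 10 positive, and the median over all tested genes was 0.03. The members' medians were 0.03 at 6 weeks, 0.08 with age in WT mice, 0.27 with age in Ercc1Δ/− mice, 0.08 with DR in WT mice, -0.12 with DR in Ercc1Δ/− mice and 0.01 between the genotypes on DR.

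**Figure D2:**
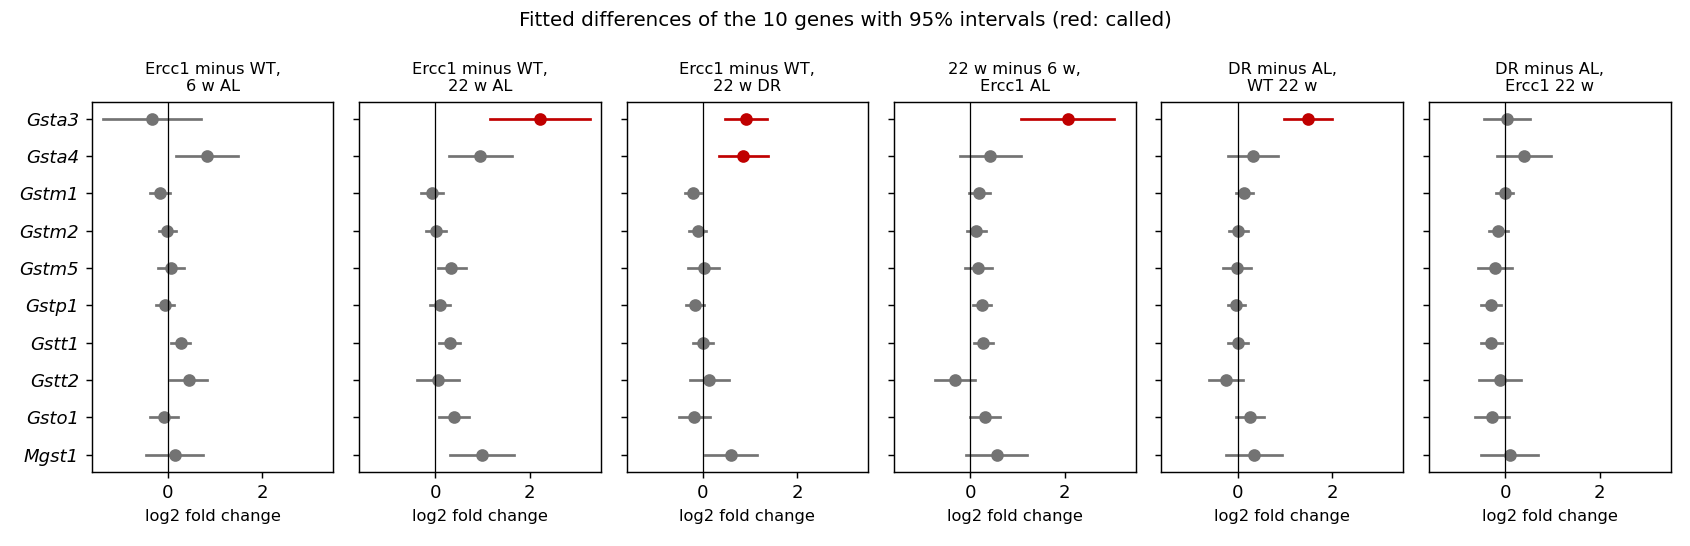
Fitted log2 fold changes (x axis) of the 10 genes in 6 comparisons, with bars for the 95% interval of each and red for called genes. Gsta3 is red in 4 of the 6 panels and Gsta4 in 1, and the mu, pi, theta and omega genes have fold changes within 0.44 of 0 in all 6 panels.

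Gsta3 was the member that changed most, and it was higher in aged Ercc1Δ/− aortas and in WT aortas on DR. The 4 AL-fed WT samples of 22 weeks had 21.7, 45.2, 59.0 and 67.9 normalized counts of Gsta3, while the 4 AL-fed Ercc1Δ/− samples of that age had 164.2, 223.7, 238.5 and 259.5. The groups did not overlap, as was the case for 18.6% of all tested genes in this comparison, 9.01% with every Ercc1Δ/− sample higher. The log2 fold change was 2.22 (standard error 0.49, 95% interval 1.16 to 3.27, adjusted p = 0.00936), a 4.65-fold difference. In the exact permutation test of the mean, two-sided, p was 0.0286, the smallest that 4 samples against 4 allow. This value follows from the lack of overlap alone and was not adjusted over genes.

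At 6 weeks the genotypes did not separate. WT samples had 21.9, 62.2, 82.8, 88.4 and 124.5 normalized counts of Gsta3 and Ercc1Δ/− samples 23.4, 30.7, 51.9, 54.8 and 108.0. The log2 fold change at this age was -0.34 (standard error 0.49, 95% interval -1.38 to 0.70, adjusted p = 0.849), and the spread within the groups was wide, with coefficients of variation of 49.6% and 61.7%. With age in Ercc1Δ/− mice on AL, Gsta3 rose from a mean of 53.8 ± 33.2 (SD, n = 5) at 6 weeks to 221.5 ± 40.9 (SD, n = 4) at 22 weeks, which gave a log2 fold change of 2.06 (standard error 0.46, adjusted p = 0.0184). The ages did not overlap, and 3.41% of all tested genes had every sample of 22 weeks higher. This call was lost when sample 004 or sample 005 of 22 weeks or sample 008 of 6 weeks was left out, with an adjusted p of up to 0.0658, and over all omissions the log2 fold change was between 1.86 and 2.57. In WT mice the log2 fold change with age was -0.50 (standard error 0.49, adjusted p = 0.881), with 76.0 ± 37.7 (SD, n = 5) at 6 weeks and 48.4 ± 20.2 (SD, n = 4) at 22 weeks. The difference between the age effects of the genotypes was 2.56 on the log2 scale (standard error 0.68, 95% interval 1.09 to 4.03). Its adjusted p was 0.129 in edgeR, which missed the threshold, and 0.0174 in DESeq2, which passed it, as did a fit of edgeR over all 6 groups.

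On DR, Gsta3 was higher than on AL in WT mice. The 5 DR-fed WT samples had 98.7, 115.1, 120.3, 139.3 and 144.5 normalized counts, and every one exceeded the highest AL-fed WT sample at 67.9. The log2 fold change was 1.49 (standard error 0.24, 95% interval 0.99 to 1.99, adjusted p = 0.00393), a 2.81-fold difference. In a fit over all 6 groups the value was 1.43 and its adjusted p 0.0944, so that this call was lost there. Every DR-fed WT sample was higher for 2.46% of all tested genes. The AL-fed WT samples of 22 weeks are the reference both here and in the genotype comparison on AL, so the 2 differences share them.

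In Ercc1Δ/− mice DR left Gsta3 without a called difference. The 5 DR-fed samples had 169.1, 220.7, 236.1, 264.8 and 308.3 normalized counts and overlapped the AL-fed samples at 164.2 to 259.5, and the log2 fold change was 0.04 (standard error 0.23, 95% interval -0.44 to 0.52, adjusted p = 0.963). The difference between the diet effects of the genotypes was -1.46 on the log2 scale (standard error 0.33, 95% interval -2.16 to -0.75). Its unadjusted p was 0.000407 and its adjusted p 0.138 in edgeR, whereas the adjusted p of DESeq2 was 0.00992. Between the genotypes on DR, Gsta3 was again higher in Ercc1Δ/− mice without overlap, as were 3.08% of all tested genes. The log2 fold change was 0.91 (standard error 0.21, adjusted p = 0.00789), and this call was lost in a fit over all 6 groups (0.93, adjusted p = 0.0792). Across all 6 groups the means thus ran from 48.4 in AL-fed WT mice of 22 weeks, through 53.8 and 76.0 at 6 weeks and 123.6 in DR-fed WT mice, to 221.5 and 239.8 in Ercc1Δ/− mice of 22 weeks on AL and DR. The 3 lowest of these groups overlapped one another, the DR-fed WT samples overlapped both groups of 6 weeks, and the 2 highest groups overlapped each other.

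**Figure D3:**
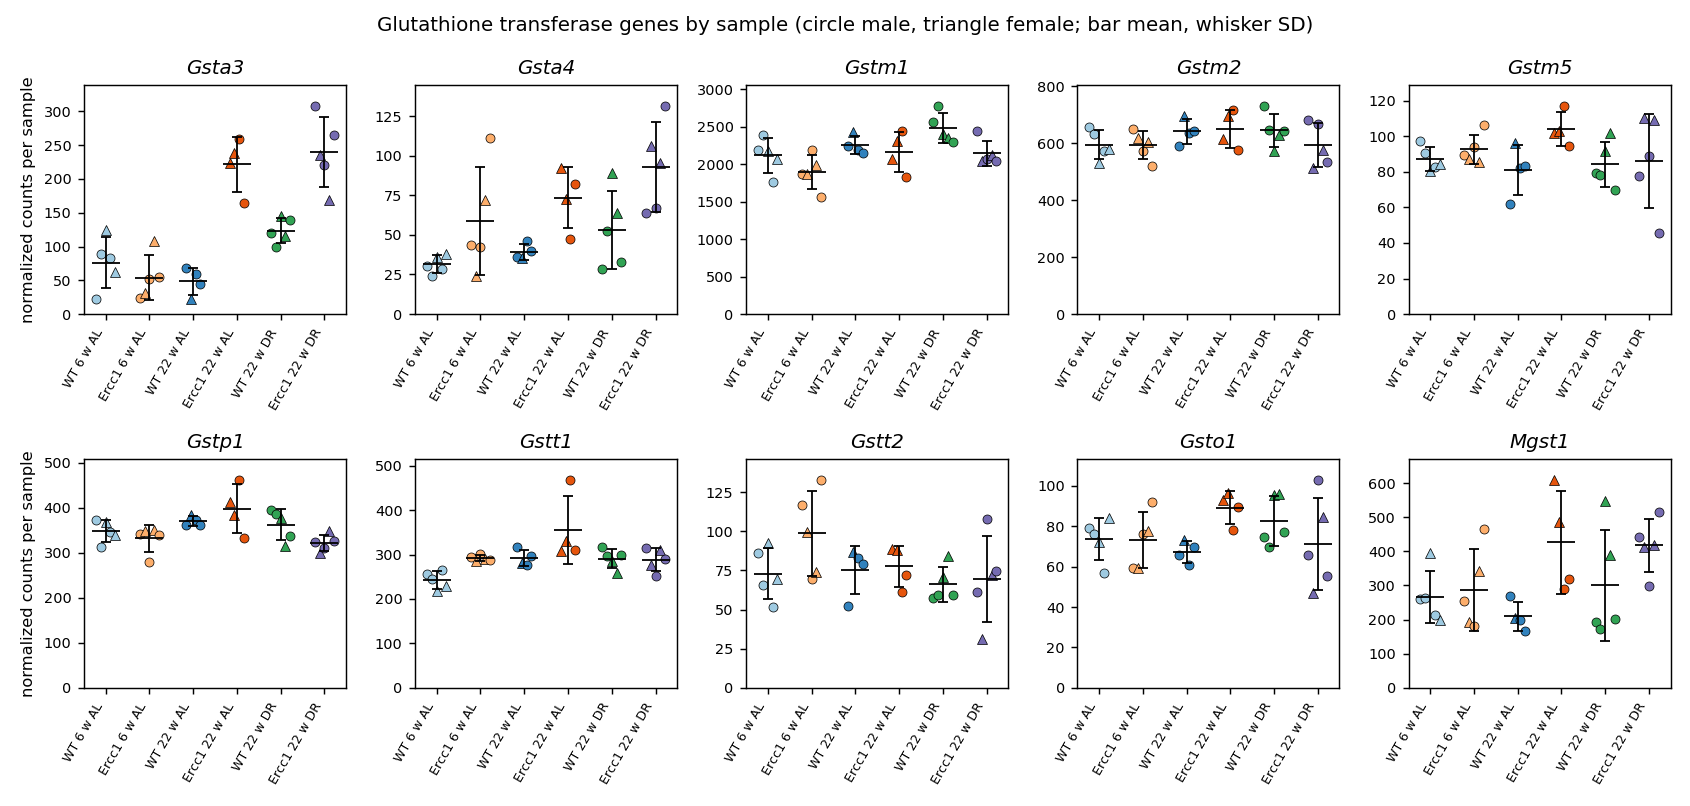
Normalized counts (y axis, from 0) of each gene in every sample of the 6 groups, with circles for males, triangles for females, a bar for the mean and whiskers for the SD. In the panel of Gsta3 all Ercc1Δ/− samples of 22 weeks lie above all WT samples, at 164.2 or more against 144.5 or less, and the panels of Gstm1 and Gstm2 are nearly level.

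Markers of other cells moved with genotype. At 22 weeks on AL, 12.0% of all tested genes were called between the genotypes, 5.96% as higher. Of 10 macrophage markers 9 were called higher in Ercc1Δ/− mice and their sum was 1011 to 1507 in WT and 2305 to 4203 in Ercc1Δ/− samples. Of 8 smooth muscle markers 6 were called lower, with sums of 119300 to 142300 in WT and 62480 to 96720 in Ercc1Δ/− samples. The 12 fat markers, of which 0 were called higher and 1 lower, summed to 7233 to 9426 in WT and 6610 to 16960 in Ercc1Δ/− samples. None of the markers on these 3 lists was at 0 throughout a group. Macrophage markers were also higher in Ercc1Δ/− mice on DR, 6 of 10, and with age in Ercc1Δ/− mice, 6 of 10. In these comparisons 5.91% and 2.22% of all tested genes were called higher. Between DR-fed and AL-fed WT mice, 0 macrophage markers were called higher and 1 lower, with sums of 626.6 to 1148 on DR, and the fat markers summed to 5960 to 18400. Across 28 samples the log2 level of Gsta3 had Pearson correlations of -0.66 with the fibroblast sum, 0.60 with the cardiac muscle sum, 0.48 with the macrophage sum and -0.44 with the smooth muscle sum, and of -0.19, 0.04, 0.18 and 0.08 within groups. The red blood cell sum gave -0.40, and -0.58 within groups, and the Schwann cell and nerve sum -0.23, and -0.53 within groups. WT sample 001 of 6 weeks had the highest of both sums, 5724 and 4246, and a Gsta3 of 21.9. Endothelium gave -0.12, and -0.31 within groups, and the lymphocyte sum -0.04, and -0.30 within groups. With age in Ercc1Δ/− mice the fibroblast sums went from 27960 to 42960 down to 14950 to 20140, with 3 of 8 markers called lower, and the cardiac sums from 291 to 763.2 up to 783.9 to 1420, with 0 of 6 tested markers called. The part of these cell types, fat included, in the differences of Gsta3 was not tested.

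Gsta4, whose enzyme removes lipid aldehydes, was higher in Ercc1Δ/− than in WT mice on DR. The 5 WT samples on DR had 28.7, 32.9, 52.3, 63.5 and 89.2 normalized counts and the 5 Ercc1Δ/− samples 63.5, 67.2, 95.5, 106.3 and 131.5, so that the groups overlapped in part. The log2 fold change was 0.86 (standard error 0.25, 95% interval 0.34 to 1.38, adjusted p = 0.0261), a 1.82-fold difference. The call was lost when sample 007 or 028 of the WT mice or sample 029 of the Ercc1Δ/− mice was left out, with a log2 fold change of 0.61 and an adjusted p of 0.106 without sample 029. It was also lost without the filter on low counts, without the sex term, in a fit over all 6 groups and with sample 003 in the fit, with an adjusted p of 0.28 in the last of these.

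On AL at 22 weeks the difference of Gsta4 was of the same size but missed the threshold. The WT samples had 35.5, 35.9, 39.9 and 46.2 normalized counts, and the Ercc1Δ/− samples 47.4, 72.5, 82.1 and 92.0. The groups did not overlap, as was the case for 18.6% of all tested genes, 9.01% with every Ercc1Δ/− sample higher. The lowest Ercc1Δ/− sample, 013 at 47.4 beside 46.2 in WT, had 17 raw counts. The log2 fold change was 0.95 (standard error 0.32, 95% interval 0.28 to 1.63, adjusted p = 0.0608). It was called without the sex term, with only the compared groups in the fit or without Ercc1Δ/− sample 013, and with sample 003 in the fit the value was 0.25. At 6 weeks the mean was 31.3 ± 5.66 (SD, n = 5) in WT mice and 58.7 ± 33.9 (SD, n = 5) in Ercc1Δ/− mice, and the log2 fold change was 0.83 (standard error 0.31, adjusted p = 0.231). It was 1.09 (adjusted p = 0.029) without Ercc1Δ/− sample 008. The means hide a spread, with samples 023 and 027 of the Ercc1Δ/− mice at 72.0 and 111.1 and the other 3 at 24.2 to 43.9. Raw counts of Gsta4 were low, 9 to 137 per sample, and in AL-fed WT mice the SD between samples was no larger than the counting error alone, at 0.81 times it at 6 weeks and 0.984 times it at 22 weeks.

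Mgst1, the microsomal enzyme, had a 1.99-fold difference at 22 weeks on AL that missed the adjusted threshold. The WT samples had 167.1, 197.4, 204.0 and 269.7 normalized counts and the Ercc1Δ/− samples 290.2, 318.5, 485.4 and 610.5. All of the latter were above all of the former, as for 9.01% of all tested genes. The log2 fold change was 0.99 (standard error 0.32, 95% interval 0.31 to 1.67, adjusted p = 0.058). DESeq2 called this difference, as did edgeR without the sex term or with only the compared groups in the fit, with an adjusted p of 0.0117 in DESeq2, and it also passed without WT sample 012 or Ercc1Δ/− sample 013. With sample 003 in the fit the value was 0.65 (adjusted p = 0.322). The Ercc1Δ/− samples at 485.4 and 610.5 were the 2 females of the group, whereas the WT group held 1 female, at 204.0. On DR the log2 fold change between the genotypes was 0.59 (standard error 0.26, adjusted p = 0.161). DESeq2 called it (0.61, adjusted p = 0.0431), and so did edgeR without WT sample 017 (adjusted p = 0.0284). DR-fed WT mice split widely, with 171.3, 191.8 and 203.2 in the 3 males and 388.4 and 546.2 in the 2 females. These 2 females had fat marker sums of 14600 and 18400, against 5960 to 8636 in the 3 males. In the AL-fed Ercc1Δ/− mice of 22 weeks the females had fat sums of 12710 and 16960 and the males 6610 and 10100. Sex and fat content cannot be told apart in these 2 groups. Over all groups, the difference between females and males was 0.38 on the log2 scale for Mgst1 (standard error 0.18, unadjusted p = 0.0483, adjusted p = 0.631 in edgeR), and no member was called for sex, where 0.186% of all tested genes were. At an unadjusted p under 0.05, 2 members passed, Mgst1 and Gstt1, where 7.83% of all genes did, and DESeq2 called 0.

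Mgst1 and Gsta4 followed the amount of fat transcripts in the sample. Across 28 samples, the log2 level of Mgst1 had a Pearson correlation of 0.89 (Spearman 0.87) with the summed level of 12 fat markers, and that of Gsta4 one of 0.77 (Spearman 0.71). Without the 2 samples farthest from the median fat sum the values were 0.88 and 0.73. After the mean of each group was taken off, they were 0.91 and 0.83. For Gsta3 the correlation was 0.46, and 0.23 within groups, while Gstm2 ran the other way, at -0.58, and -0.63 within groups. The points share their libraries, and all levels are parts of the same total. At 22 weeks on AL the genotypes did not overlap for 4 members, nor for 18.6% of all tested genes, 9.01% with every Ercc1Δ/− sample higher. In this comparison the fat sums overlapped only through Ercc1Δ/− sample 013, at 6610. The other Ercc1Δ/− samples had fat sums of 10100, 12710 and 16960, and the WT samples 7233 to 9426. The median log2 fold change of the 12 fat markers was 0.83, though no fat marker was called higher in this comparison. On DR the fat sums were 5960 to 18400 in WT and 10410 to 17900 in Ercc1Δ/− samples. The part of fat in the differences of Mgst1 and Gsta4 was not tested.

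**Figure D4:**
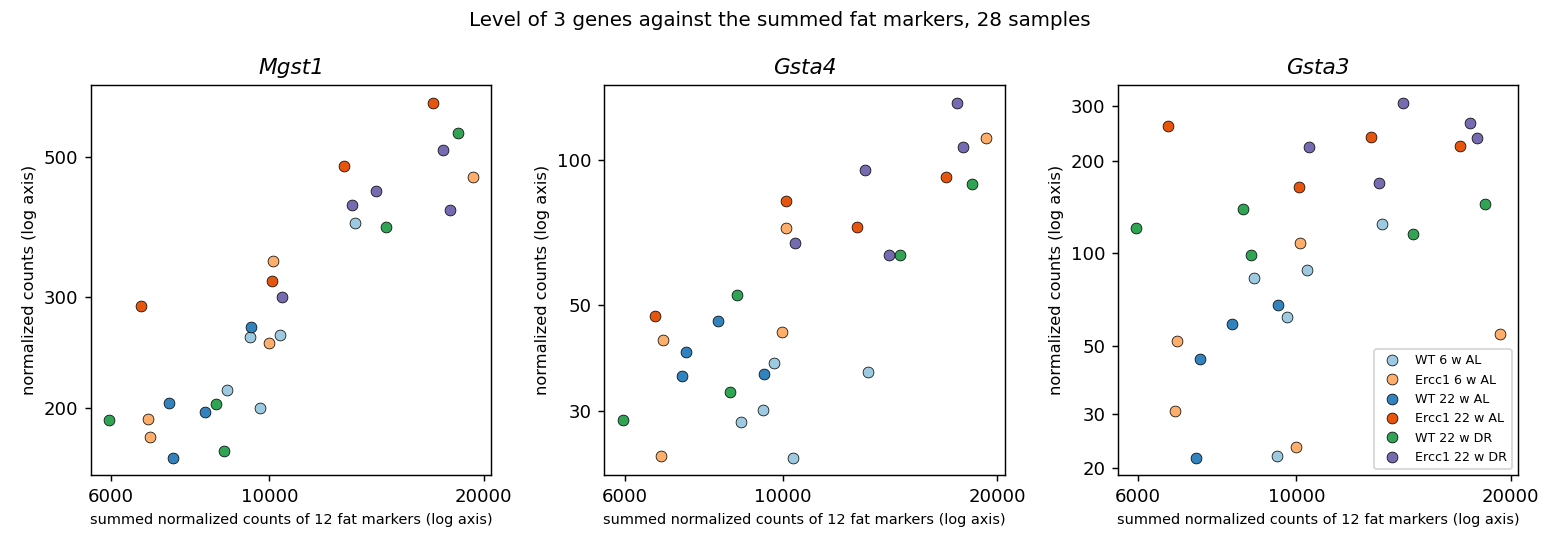
Normalized counts of Mgst1, Gsta4 and Gsta3 (y axes, log) against the summed normalized counts of 12 fat markers (x axes, log) in 28 samples, coloured by group. Mgst1 lies along a line (r = 0.89) and Gsta4 more loosely (r = 0.77), whereas for Gsta3 (r = 0.46) all Ercc1Δ/− samples of 22 weeks lie above all others at overlapping fat sums.

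The mu class, which supplied most of the family's transcripts, had no called difference. In the 6 groups Gstm1 had means between 1893 ± 228 (SD, n = 5) in Ercc1Δ/− mice of 6 weeks and 2479 ± 195 (SD, n = 5) in DR-fed WT mice, and Gstm2 between 593 ± 49.3 and 651 ± 66.0. At 22 weeks on AL the log2 fold change between the genotypes was -0.07 for Gstm1 (95% interval -0.31 to 0.17) and 0.02 for Gstm2 (95% interval -0.19 to 0.22). Gstm1 was lower in Ercc1Δ/− mice on DR by a log2 fold change of -0.21 (standard error 0.08, adjusted p = 0.107), and was called without the filter on low counts (-0.27, adjusted p = 0.0328). DR-fed WT samples of Gstm1 lay at 2295 to 2777 and DR-fed Ercc1Δ/− samples at 2037 to 2438. Gstm5, a form better known from brain and testis, had 80.9 ± 14.1 (SD, n = 4) in AL-fed WT and 104.2 ± 9.46 (SD, n = 4) in AL-fed Ercc1Δ/− mice of 22 weeks, and its log2 fold change was 0.34 (standard error 0.14, adjusted p = 0.118).

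Gstp1, the pi form, had its largest difference with diet in Ercc1Δ/− mice. It had 333.5, 384.6, 412.1 and 463.2 normalized counts in the AL-fed and 299.1, 311.9, 324.7, 325.8 and 347.8 in the DR-fed Ercc1Δ/− samples of 22 weeks. The groups overlapped in 1 sample, and the log2 fold change was -0.30 (standard error 0.10, 95% interval -0.50 to -0.09, adjusted p = 0.124). In WT mice the change with DR was -0.03 (95% interval -0.21 to 0.16), and the difference between these effects was -0.27 (unadjusted p = 0.0553, adjusted p = 0.586 in edgeR). With DR in Ercc1Δ/− mice 7 of the 10 members had a negative log2 fold change.

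Gstt1 of the theta class had a small offset at 6 weeks, which was not called. The WT samples had 217.0, 228.1, 245.5, 256 and 265.5 normalized counts and the Ercc1Δ/− samples 284.9, 287.9, 289.2, 294.5 and 301.4. The SD between these Ercc1Δ/− samples was 0.344 times the counting error, so they lay closer together than counting error alone would give. All Ercc1Δ/− samples were higher, as for 1.07% of all tested genes, and the log2 fold change was 0.27 (standard error 0.10, 95% interval 0.07 to 0.47, adjusted p = 0.197). The exact permutation test of the mean gave p = 0.00794, the smallest that 5 samples against 5 allow. This value follows from the lack of overlap alone and was not adjusted over genes. At 22 weeks on AL the log2 fold change was 0.30 (standard error 0.11, adjusted p = 0.069), of which sample 013 at 468.8 made a large part, since the value was 0.15 without it, and on DR it was 0.00 (95% interval -0.21 to 0.21). With age, all samples of 22 weeks were above all of 6 weeks in both genotypes on AL, with log2 fold changes of 0.25 in WT (adjusted p = 0.432) and 0.28 in Ercc1Δ/− mice (adjusted p = 0.123, and 0.15 without sample 013), where 1.74% and 3.41% of all tested genes had every older sample higher. Gstt2 ranged from 31.5 to 133.0 over the 28 samples with no called difference, and its log2 fold change between the genotypes was 0.44 at 6 weeks (unadjusted p = 0.0285, adjusted p = 0.31 in edgeR) and 0.05 at 22 weeks on AL.

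Gsto1, the omega form, was higher in each AL-fed Ercc1Δ/− sample of 22 weeks, at 78.1, 89.6, 92.9 and 96.7 normalized counts, than in any WT sample of that age on AL, at 60.7, 66.0, 69.9 and 73.2. The SD between samples was 0.826 times the counting error in these WT samples and 0.656 times it in these Ercc1Δ/− samples. The log2 fold change was 0.39 (standard error 0.16, 95% interval 0.07 to 0.71, adjusted p = 0.109). On DR it was -0.18 (adjusted p = 0.523), and the difference between the diet effects was -0.52 (standard error 0.23, unadjusted p = 0.03, adjusted p = 0.511 in edgeR). With Gsta3, Gsta4 and Mgst1, Gsto1 made up the 4 members whose groups did not overlap at 22 weeks on AL, all of them higher in Ercc1Δ/− mice, against 9.01% of all tested genes. Across 28 samples log2 Gsto1 had Pearson correlations of 0.41 with the macrophage sum and 0.51 with the lymphocyte sum. Within groups these were 0.68 and 0.67. The lymphocyte markers were all below the filter on low counts. Macrophage sums at 22 weeks on AL were 1011 to 1507 in WT and 2305 to 4203 in Ercc1Δ/− samples. The part of these cells in the difference of Gsto1 was not tested.

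Other genes that make or use glutathione, and genes of related redox, aldehyde and xenobiotic pathways, were grouped in 9 lists, each described by its calls. Between the genotypes at 22 weeks on AL, 5.96% of all tested genes were called higher. Of 23 further glutathione transferases and relatives 12 were tested. At 22 weeks on AL 2 of them were called higher in Ercc1Δ/− mice, Alox5ap (log2 fold change 1.62, adjusted p = 0.00065) and Ltc4s (1.77, adjusted p = 0.00392), both of the leukotriene pathway of white blood cells, and both were also called on DR. Both belong to the protein family of Mgst1 by structure but do not serve detoxification. Gstk1, the kappa form of mitochondria and peroxisomes, rose with age in Ercc1Δ/− mice (log2 fold change 0.62, standard error 0.15, adjusted p = 0.0176). The closest relatives of the members among the tested genes, such as Gstm4 and Gstm7, had log2 fold changes of 0.06 and 0.15 at 22 weeks on AL with adjusted p-values of 0.925 and 0.701.

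At 22 weeks on AL 5.96% of all tested genes were called higher in Ercc1Δ/− mice. Of 17 genes of the thioredoxin system and NRF2 targets, 8 were called higher and 0 lower in this comparison. Their median log2 fold change was 0.42, beside 0.03 over all tested genes. They included Akr1b8, an aldo-keto reductase (1.34, adjusted p = 0.000375), Ftl1, the ferritin light chain (0.95, adjusted p = 1.44e-05), Srxn1, which repairs peroxiredoxins (0.82, adjusted p = 0.000105), Nqo1, a quinone reductase (0.60, adjusted p = 0.0302), and Hmox1, the inducible heme oxygenase (1.87, adjusted p = 0.000753). Of 10 regulators 1 was called, Maff (0.54, adjusted p = 0.035), with log2 fold changes of -0.01 for Nfe2l2, which encodes NRF2, and -0.02 for its inhibitor Keap1. Among the peroxidases 3 of 11 were called higher, Gpx1 (0.43, adjusted p = 0.00277), Gpx3 (1.06, adjusted p = 0.0428) and the mitochondrial Prdx3 (0.81, adjusted p = 0.0293).

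Enzymes that supply glutathione or its reducing power were also compared at 22 weeks on AL, where 5.96% of all tested genes were called higher, so that 1 call in a list of this size is near the background. For synthesis and cystine uptake 1 of 7 was called higher, Slc3a2, a subunit of amino acid transporters (0.54, adjusted p = 0.00715), while Gclc and Gclm, the subunits of the rate-limiting ligase, had log2 fold changes of 0.34 (adjusted p = 0.099) and 0.28 (adjusted p = 0.405). For reduction and NADPH supply 2 of 11 were called higher, G6pdx (0.71, adjusted p = 0.0419) and Idh1 (0.54, adjusted p = 0.0205). Of 12 genes for export and processing of conjugates 2 were called higher, the transporters Abcc4 (0.73, adjusted p = 0.0302) and Abcg2 (0.97, adjusted p = 0.00194), and of 11 for removal of aldehydes 1 was, Aldh3a1 (0.83, adjusted p = 0.0109). None of 4 genes of the aryl hydrocarbon receptor was called there.

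On DR the same lists were compared between the genotypes, where 13.0% of all tested genes were called and 5.91% as higher, and with AL in Ercc1Δ/− mice, where 1.78% were called. Of the 17 thioredoxin and NRF2 genes 3 were called higher in Ercc1Δ/− mice on DR, Hmox1 (1.22), Akr1b8 (0.90) and Ftl1 (0.48). With DR in Ercc1Δ/− mice 2 of the 17 fell, Srxn1 (-0.54, adjusted p = 0.0122) and Cbr3 (-0.89, adjusted p = 0.0303), as did 3 of 11 peroxidases, Gpx1 (-0.37), Gpx8 (-0.58) and Prdx1 (-0.43), whereas Gsta3 in these same samples differed by 0.04. In WT mice, where 1.25% of all tested genes were called with DR, 0 of the 17 and 0 of the 11 peroxidases were called. The 1 called gene of all these lists in this comparison was Dpep1, a dipeptidase that trims glutathione conjugates (0.87, adjusted p = 0.0234). With age in Ercc1Δ/− mice 8 of the 17 were called higher and 1 lower, Abcc1 (-0.39, adjusted p = 0.0332). Of all tested genes 4.65% were called with age in these mice, 2.22% as higher.

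The genes whose pattern over 28 samples was most like that of Gsta3 were Aldh1a1 (r = 0.88), which makes retinoic acid from retinal, Tmt1a (r = 0.88) and Samhd1 (r = 0.87), by Pearson correlation of log2 levels. Aldh1a1 was called in neither the genotype comparison on AL (log2 fold change 1.17, adjusted p = 0.0787) nor with DR in WT mice (0.91, adjusted p = 0.18). It had group means of 185.3 normalized counts in AL-fed and 327.2 in DR-fed WT mice of 22 weeks, and of 413.5 and 595.7 in Ercc1Δ/− mice. Mgst1 was closest to Ephx2 (0.93), Fabp4 (0.93) and Lpl (0.92), and Gsta4 to Nr1h3 (0.89), Pla2g12a (0.88) and Letm1 (0.88). Fabp4, a fatty acid carrier of fat cells, was among the 12 fat markers. Among the members themselves the highest correlation was between Mgst1 and Gsta4 (0.77, and 0.71 within groups), followed by Gsta3 and Mgst1 (0.61, and 0.31 within groups). Gsta3 and Gsta4 (0.58, and 0.21 within groups) came next with Gstm1 and Gstm2 (0.58, and 0.56 within groups), which are neighbours that share 31-base words. Within groups, Gstt2 and Gsto1 had 0.61. The most negative correlation was between Gsta4 and Gstm2 (-0.42, and -0.69 within groups). The values share their libraries and their scaling. The nearest genes of the other members had correlations of 0.65 to 0.86. With Spearman correlations 11 of the 30 nearest genes stayed on the list.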

How the data were processed

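The authors trimmed reads with fastp, aligned them with STAR 2.7.10a to GRCm39, removed duplicates by unique molecular identifiers with UMI-tools 1.1.2 and counted reads per gene with HTSeq 2.0.2. They deposited whole-number counts without normalization. Lines of reads not assigned to a gene were left out of library sizes, among them 1.4% to 1.82% ambiguous reads and 3.66% to 7.06% not uniquely aligned reads.

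Tests used edgeR 4.0.16 in R 4.3.3 (TMM, quasi-likelihood, group and sex as terms) on genes that exceeded 10 counts in over 10 samples. Genotype and age were fitted on the 18 AL samples, and diet and genotype on DR on the 18 samples of 22 weeks. Standard errors were derived from the F statistic. Adjusted p-values of the main fits are over the 12353 tested genes, and all are from edgeR unless DESeq2 1.42.0 is named. Among the alternatives, 28033 genes were tested without the count filter, 12354 with sample 003 and 9604 after thinning. Alternatives were DESeq2, RLE factors, no count filter, sample 003 added, no sex term, other samples in the fit, the earlier edgeR method, thinning to 921167 counts and leaving out single samples. Every mouse gave 1 sample. Counts of mice of the same group had a chi-square of 2.46 to 23.7 per degree of freedom over 56 pairs, among them those with sample 003. The spread between mice, and not the depth alone, thus sets the precision. The procedure was tested on simulated data.

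The members, the pathway lists and the marker lists were chosen with earlier results of these data known. Named beside the 10 members are the called genes of each list with the smallest p, at most 3 per direction, and for each member the 3 tested genes with the highest Pearson correlation. Members of lists that were not called, and Nqo1 and Hmox1 beyond the first 3, were named after their values were seen. Positions, exon lengths and sequences came from GENCODE M39 on GRCm39, which is later than the annotation of the study.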

Additional observations from a re-analysis of the deposited data

Results flagged for a closer look

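In 3 of 60 sets of a gene and a group, 1 sample lay far from the others by Dixon's test at the 95% level, which chance alone would give in about 1 of 20 sets. Gstt1 was 468.8 normalized counts in sample 013 of the AL-fed Ercc1Δ/− mice of 22 weeks, and the next sample had 331.0. Gstp1 was 280.3 in sample 015 of the AL-fed Ercc1Δ/− mice of 6 weeks, with the next at 339.5. Gstm1 was 2438 in sample 006 of the DR-fed Ercc1Δ/− mice, with the next at 2125.

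Sample 003, which entered no comparison between groups in the main fits, exceeded all 28 other samples in 3 of the 10 genes. It had 410.0 normalized counts of Gsta4 (41 raw counts), where the highest other sample had 131.5, 660.0 of Mgst1 (66 raw counts), where the highest had 610.5, and 180.0 of Gstt2 (18 raw counts), where the highest had 133.0. Its Gsta3 was 40.0 from 4 raw counts. With sample 003 in the mean, Gsta4 in AL-fed WT mice of 22 weeks was 113.5 ± 165.8 (SD, n = 5), against 39.4 ± 4.95 (SD, n = 4) without it.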

How the results depend on the processing

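No paired analysis was possible because each mouse gave 1 sample and no number is shared between groups. No called member changed its direction in any of the 9 alternatives or when any sample was left out. Of 1050 values of single genes under the alternatives and at the extremes of the omissions, 1026 kept their side of the threshold, 7 lost and 17 gained a call. A sign change between values that were called in neither fit occurred 38 times.

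Between the genotypes at 22 weeks on AL, 2 members were called by DESeq2 and 3 without the sex term or with only the compared groups in the fit, against 1, and omissions gave 1 to 3. On DR, 1 was called with sample 003 or without the sex term and 0 in a fit over all 6 groups, against 2, while DESeq2 called 3, with Mgst1, and omissions gave 1 to 3. With DR in WT mice 0 were called over all 6 groups, against 1. For the difference of the genotype effect between the ages, 1 was called by DESeq2 and over all 6 groups, and omissions gave 0 to 1. For that between the diets 1 was called by DESeq2. Omissions also gave 0 to 1 at 6 weeks and with age in Ercc1Δ/− mice. The causes of these changes were not tested. Gsta3 at 22 weeks on AL was called under all 9 alternatives, with log2 fold changes of 2.12 to 2.43, and in all 8 omissions, with 1.76 to 2.40.

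Per kb of gene body, 2 of the 10 members kept their place in the order of levels. By Spearman correlation, 11 of 30 nearest genes were kept. Counts of 9 to 137 limit what can be seen for Gsta4. Low counts also limit Gstt2, at 8 to 209 per sample, Gsto1, at 12 to 207, Gstm5, at 20 to 219, and Gsta3, at 24 to 248.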
